A study of Mus musculus with 12 samples.

Results

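The exons described here are cassette exons, which an mRNA either includes or skips as a whole, whose length is a multiple of 3 bases. They were taken from the skipped-exon rows of the authors' splicing tables for neural progenitor cells (NPC) and mouse embryonic fibroblasts (MEF) after loss of Prmt5, with exons of Prmt5, Mdm2, Mdm4, Tmpo and Bptf set aside. This left 53 of the 135 skipped exons listed in NPC, in 49 genes, and 21 of the 32 listed in MEF, in 18 genes. Counted once across both cell types there were 71 such exons of 160, in 63 genes. Those left out by gene name numbered 3, all in NPC. The remaining 79 exons listed in NPC and 11 listed in MEF had lengths that are not a multiple of 3 and served as the comparison. This comparison and the counts over all listed skipped exons were not filtered by gene name. Both keep exons of the genes set aside above.

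PRMT5 methylates arginines of many proteins, among them the Sm proteins at the core of the spliceosome's small nuclear ribonucleoproteins. When a coding exon with a length divisible by 3 is skipped, the reading frame downstream is kept and the protein lacks an internal stretch, whereas skipping of other lengths shifts the frame. Very short exons of this kind, called microexons, are known from neurons, where they alter surfaces of proteins of the synapse and cytoskeleton. Some exons with a length divisible by 3 carry a stop codon themselves and send the transcript to nonsense-mediated decay, so the length alone does not make an exon frame-keeping.

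RNA was sequenced from 12 libraries, 3 for each of 4 groups. All cells had the genotype Prmt5 F/FER, a conditional allele that 4-hydroxytamoxifen (4-OHT) inactivates, on the strain background mixed C57BL/6 X 129S1/SvlmJ, and came from E14.5 embryos. The groups were NPC with 50 nM 4-OHT for 24 hours, NPC with ethanol instead, MEF with 4-OHT and MEF with ethanol. NPC were cortical neurospheres kept with epidermal and fibroblast growth factor and treated on day 4, and MEF were primary fibroblasts treated at passage 1. No group without the conditional allele received 4-OHT, so effects of the drug and of the gene loss cannot be told apart. Nothing in the sources used here says that the libraries of a group were separate cultures or animals, so the spread between them may be technical. In the authors' deposited expression tables Prmt5 stood at 4.92 RPKM with 4-OHT and 33.4 RPKM with ethanol in NPC, and at 3.76 RPKM with 4-OHT and 20.96 RPKM with ethanol in MEF.

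Each splicing table sets 1 library with 4-OHT against 1 with ethanol under a pair code, 24, 26 and 28 in NPC and 159, 161 and 163 in MEF. It gives the reads that support inclusion and exclusion and an inclusion level between 0 and 1, in which inclusion reads are divided by a length factor. The listed skipped exons all had a deposited p-value below 0.05, with 0.0495 the highest in NPC and 0.0498 in MEF. Their smallest absolute difference in a pair was 0.201 in NPC and 0.203 in MEF. Exons appear only with the pairs that met these limits: 12 NPC exons and 1 MEF exon were listed in 3 pairs, and the other 41 and 20 in 2 pairs. Directions and sizes in the listed pairs are therefore partly set by the listing and are given as a description. Differences below are 4-OHT minus ethanol, averaged over the listed pairs.

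The sequences of all exons under 30 bases are shown here with those of several longer coding exons described in the values that follow. Capitals mark the cassette exon, and the lower-case letters are the last 12 bases of the exon before it and the first 12 of the exon after it in the mRNA. They were read 5′ to 3′ from GENCODE M21 transcripts (GRCm38), matched by gene, exon length and the lengths of both neighbouring introns, and the positions given are those of the deposited mm9 files.
Kif3a, 9 bases, chr11:53404219-53404227, plus strand: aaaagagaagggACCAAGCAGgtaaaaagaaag
Spna2, 15 bases, chr2:29869678-29869692, plus strand: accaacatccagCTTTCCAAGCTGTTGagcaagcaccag
Immt, 15 bases, chr6:71816720-71816734, plus strand: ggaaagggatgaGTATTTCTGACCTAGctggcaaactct
Mink1, 24 bases, chr11:70422910-70422933, plus strand: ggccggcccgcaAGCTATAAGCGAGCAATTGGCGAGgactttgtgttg
Nnat short form, 27 bases, chr2:157386949-157386975, plus strand: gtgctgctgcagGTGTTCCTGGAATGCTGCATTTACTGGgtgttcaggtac
Nnat long form, 81 bases, chr2:157386949-157387029, plus strand: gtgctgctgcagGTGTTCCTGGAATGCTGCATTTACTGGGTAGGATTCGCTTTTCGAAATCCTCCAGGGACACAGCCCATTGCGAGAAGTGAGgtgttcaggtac
Upf3b, 39 bases, chrX:34639061-34639099, minus strand: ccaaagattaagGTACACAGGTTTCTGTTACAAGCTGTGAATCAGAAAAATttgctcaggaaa
Palld, 51 bases, chr8:64013655-64013705, minus strand: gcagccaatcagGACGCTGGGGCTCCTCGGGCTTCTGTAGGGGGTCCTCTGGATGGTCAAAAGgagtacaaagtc
Cask, 69 bases, chrX:13129499-13129567, minus strand: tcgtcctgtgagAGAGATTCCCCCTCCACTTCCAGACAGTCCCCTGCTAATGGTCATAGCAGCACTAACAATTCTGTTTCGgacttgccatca
Epn1, 75 bases, chr7:5044914-5044988, plus strand: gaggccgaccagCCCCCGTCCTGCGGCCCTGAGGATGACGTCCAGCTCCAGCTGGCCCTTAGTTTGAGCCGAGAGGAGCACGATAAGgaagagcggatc
Ptbp1, 78 bases, chr10:79322862-79322939, plus strand: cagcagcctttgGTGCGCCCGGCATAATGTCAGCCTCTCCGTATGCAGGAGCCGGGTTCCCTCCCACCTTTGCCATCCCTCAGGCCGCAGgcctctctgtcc
Gphn, 108 bases, chr12:79594937-79595044, plus strand: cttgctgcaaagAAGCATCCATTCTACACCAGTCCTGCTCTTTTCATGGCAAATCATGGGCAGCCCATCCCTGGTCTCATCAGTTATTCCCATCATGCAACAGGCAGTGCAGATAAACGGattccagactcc

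Across the 53 NPC exons, inclusion was lower with 4-OHT for 34 and higher for 19. That is 64.2% lower, against a background of 62.2% of all 135 NPC skipped exons, and 35.8% higher against a background of 37.8%. The median difference was -0.247 over the 53 exons, -0.256 over all NPC skipped exons and -0.278 over those with frame-shifting lengths. In MEF, inclusion was lower for 15 exons and higher for 6. That is 71.4% lower against a background of 78.1%, and 28.6% higher against a background of 21.9%, with a median difference of -0.307 against -0.367 over all 32 MEF skipped exons. Among the MEF exons with frame-shifting lengths, inclusion was lower for 10 of 11 (90.9%), at a median difference of -0.489. Among frame-keeping exons, the share with lower inclusion lay near the background in NPC and below it in MEF. The MEF background is itself made up mostly of frame-keeping exons, and no difference between the sets was tested. With raw reads in place of the length-normalised level, the medians were -0.148 in NPC and -0.188 in MEF. In bulk RNA, a lower inclusion level within each cell and a smaller share of the RNA from cells that include the exon cannot be told apart.

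**Figure D1:**
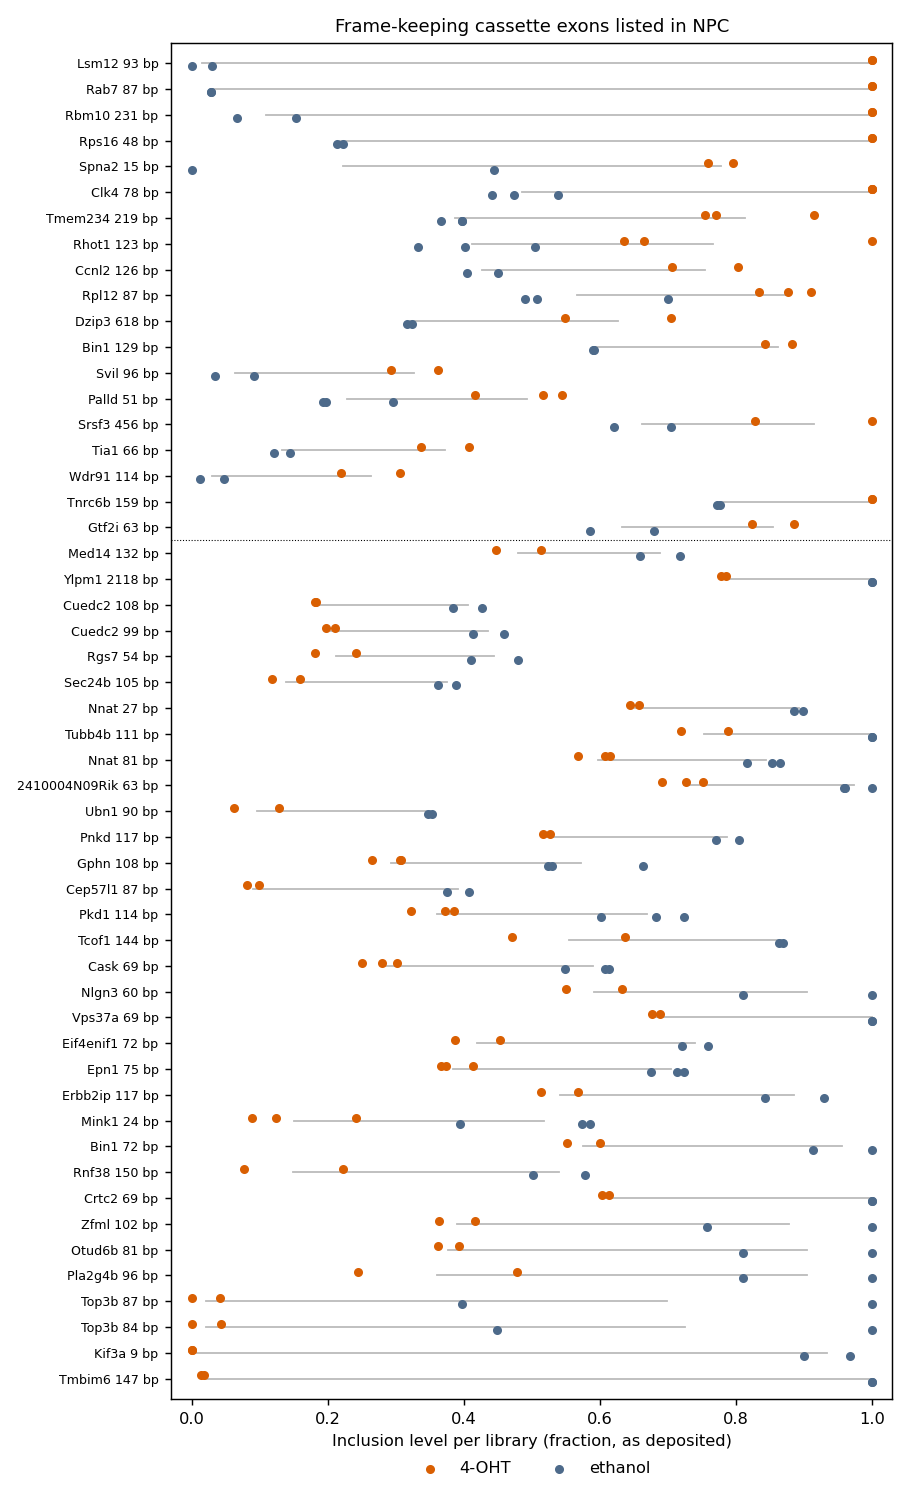
Deposited inclusion level (fraction, horizontal axis) of 52 of the 53 NPC exons in each listed library with 4-OHT and with ethanol, with a grey line between the 2 group means; exons above the dotted line had higher inclusion with 4-OHT. There are 19 exons above the line and 33 below, and the points of the groups do not overlap within any exon, as for all 135 NPC skipped exons.

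Microexons made up 4 of the 53 NPC exons and 1 of the 21 MEF exons. Over all listed skipped exons, 5 of 135 in NPC and 1 of 32 in MEF were under 30 bases. All 5 frame-keeping microexons lie whole in the coding sequence of a protein-coding GENCODE transcript. For each of them a transcript that skips the exon is annotated too. Lower inclusion was seen for Kif3a, Mink1 and the short form of Nnat, and higher inclusion for Spna2 and Immt.

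Kif3a encodes a motor subunit of kinesin-2, the motor of ciliary transport. Its 9-base exon had 0 inclusion and 22 exclusion reads in pair 26 and 0 and 19 in pair 28 with 4-OHT, against 27 inclusion and 8 exclusion reads and 11 and 11 with ethanol. No inclusion read was seen in either 4-OHT library, and inclusion made up 77.1% of the reads (95% Clopper-Pearson interval 59.9% to 89.6%) and 50.0% (28.2% to 71.8%) in the ethanol libraries. The counts of 0 among 22 and 19 reads allow a share of up to 13.6% and 15.8%, taken as 3 divided by the reads. The upper ends of the Clopper-Pearson intervals are 15.4% and 17.6%. These limits and intervals cover counting error alone. The deposited levels were 0 in both 4-OHT libraries, against 0.968 and 0.900 with ethanol, since inclusion reads are divided by a length factor of 0.111 for this exon.

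Mink1, a kinase of the misshapen family, has an exon of 24 bases, the only frame-keeping microexon listed in 3 pairs. Its levels were 0.124, 0.088 and 0.241 with 4-OHT in pairs 24, 26 and 28, against 0.585, 0.395 and 0.574 with ethanol. Every 4-OHT library lay below every ethanol library, and the groups were apart for all 59 NPC events listed in 3 pairs. The mean was 0.151 ± 0.080 with 4-OHT and 0.518 ± 0.11 with ethanol (SD, n = 3 each), a difference of -0.367. The lowest library held 17 reads, 2 of them for inclusion. The exact permutation test gave p = 0.1, two-sided, the smallest that 3 against 3 libraries allow, and p = 0.1 after Benjamini-Hochberg adjustment over the 59 NPC events of every class listed in 3 pairs. This test can therefore not reach 0.05 for any exon here.

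Nnat encodes neuronatin, an imprinted small membrane protein of the developing brain. The first 27 bases of its long exon are the short form, and both forms are compared with the same exclusion reads, so they are not independent. The short form had levels of 0.658 and 0.644 with 4-OHT in pairs 24 and 28, against 0.886 and 0.899 with ethanol, on 364 to 1030 reads per library. The long form had levels of 0.607, 0.615 and 0.568 with 4-OHT, against 0.853, 0.816 and 0.864 with ethanol. It was lower in all 3 pairs, by -0.248 on average (exact permutation p = 0.1, two-sided), and had the deepest read support of the exons listed in 3 pairs, with up to 2574 reads in a library. A skipped exon of Nnat with 76 bases, a frame-shifting length, was also listed in NPC at -0.278.

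Spna2, now named Sptan1, encodes alpha-II spectrin of the membrane skeleton. Its 15-base exon had 52 inclusion and 30 exclusion reads in pair 24 and 116 and 83 in pair 26 with 4-OHT, against 21 and 59 reads and 0 and 105 reads with ethanol. Levels were 0.796 and 0.759 with 4-OHT, against 0.445 and 0 with ethanol. The 4-OHT libraries were alike, while the ethanol libraries differed from each other by more than the groups did in pair 24.

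Immt encodes mitofilin, which shapes the cristae of mitochondria. Its exon, also of 15 bases, had levels of 0.393 and 0.390 with 4-OHT in MEF pairs 159 and 161, against 0 in both ethanol libraries. With 4-OHT, 54 of 242 and 39 of 176 reads supported inclusion, or 22.3% (17.2% to 28.1%) and 22.2% (16.3% to 29.0%). With ethanol, 0 of 169 and 0 of 132 reads did. This allows a share of up to 1.78% and 2.27% as 3 divided by the reads, or 2.16% and 2.76% by the Clopper-Pearson interval.

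**Figure D2:**
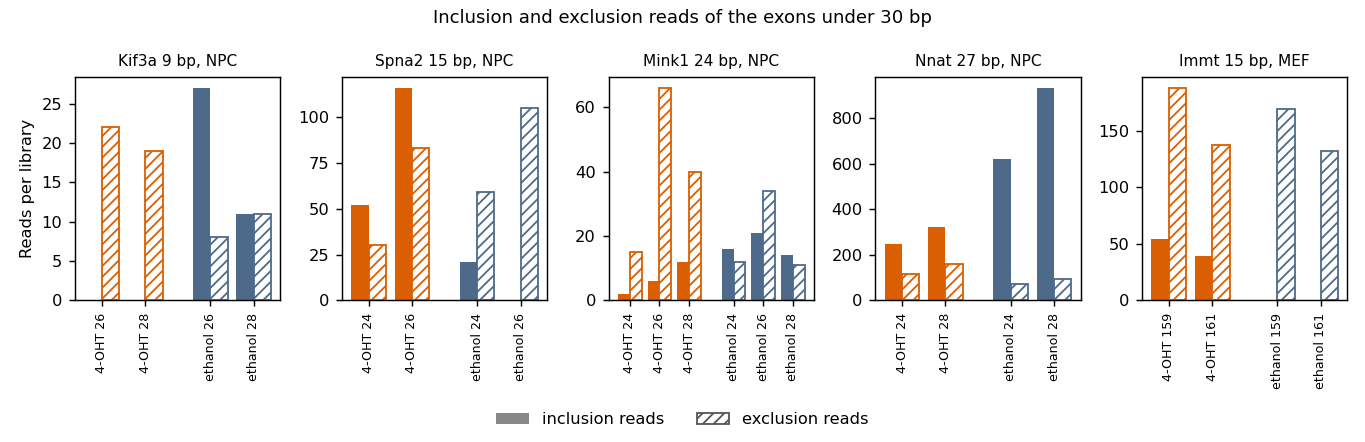
Reads per library (vertical axis, scaled for each exon) for inclusion (filled) and exclusion (hatched) of the 5 exons under 30 bases, with the 4-OHT libraries left of the ethanol libraries and pair codes under the bars. Kif3a has no inclusion reads with 4-OHT, Immt none with ethanol and Spna2 none in ethanol library 26.

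Among the longer exons with lower inclusion in NPC, 6 were listed in 3 pairs. Cask, a scaffold of the presynaptic membrane, had levels of 0.302, 0.251 and 0.280 with 4-OHT, against 0.607, 0.549 and 0.614 with ethanol, for an exon of 69 bases. Epn1, the clathrin adaptor epsin 1, had levels of 0.374, 0.413 and 0.366 with 4-OHT, against 0.724, 0.675 and 0.714 with ethanol, for an exon of 75 bases. In both genes the 3 libraries of a group lay close together, and the mean difference, -0.312 for Cask and -0.320 for Epn1, was many times the SD within a group, 0.026 with 4-OHT and 0.036 with ethanol for Cask.

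Gphn encodes gephyrin, the scaffold of inhibitory synapses, which also acts in molybdenum cofactor synthesis. Its exon of 108 bases had levels of 0.265, 0.306 and 0.308 with 4-OHT, against 0.664, 0.530 and 0.524 with ethanol. Pkd1, the membrane protein polycystin 1 of the primary cilium, had levels of 0.323, 0.372 and 0.386 with 4-OHT, against 0.601, 0.682 and 0.724 with ethanol, for an exon of 114 bases. The remaining 2 were the long form of Nnat and an exon of 63 bases of the long non-coding RNA 2410004N09Rik, where frame has no meaning. That exon averaged 0.723 ± 0.030 with 4-OHT and 0.973 ± 0.023 with ethanol (SD, n = 3 each). All 6, like the 5 with higher inclusion, gave an exact permutation p of 0.1, and none of the levels overlapped between groups, as for 100% of the NPC events listed in 3 pairs.

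Further exons with lower inclusion in 2 listed pairs, chosen after their values were seen except for Sec24b, were those of Nlgn3, Rgs7, Sec24b and Med14. Nlgn3, the synaptic adhesion protein neuroligin 3, had levels of 0.550 and 0.632 with 4-OHT, against 0.810 and 1 with ethanol, for an exon of 60 bases. Rgs7, a regulator of G protein signalling in neurons, had 0.242 and 0.182 with 4-OHT, against 0.480 and 0.410 with ethanol. Sec24b, a cargo receptor of the COPII coat, had 0.118 and 0.159 with 4-OHT, against 0.362 and 0.389 with ethanol. No library with 4-OHT reached the level of an ethanol library of the same exon. The groups did not overlap for any of the 135 NPC skipped exons. Med14, a subunit of the Mediator complex, had the smallest mean difference of the NPC exons, -0.208.

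Higher inclusion in 3 pairs was listed for Palld, Rhot1, Rpl12, Tmem234 and Clk4. Palld encodes palladin, an actin-bundling protein, and its exon of 51 bases had levels of 0.417, 0.516 and 0.544 with 4-OHT, against 0.193, 0.198 and 0.296 with ethanol. Rhot1 encodes the mitochondrial GTPase Miro1, and its exon of 123 bases had levels of 1, 0.665 and 0.635 with 4-OHT, against 0.504, 0.402 and 0.332 with ethanol. The level of 1 in pair 24 came from 29 inclusion and 0 exclusion reads, and without that pair the difference of 0.354 was 0.283.

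Rpl12, a protein of the large ribosomal subunit, had levels of 0.834, 0.911 and 0.876 with 4-OHT, against 0.490, 0.700 and 0.508 with ethanol. Ribosomal protein genes have many near-identical copies in the genome, as tubulin genes do, so the reads of Rpl12, Rps16, Rpl23 and Tubb4b are uncertain. In 2 pairs each, higher inclusion was listed for the actin-binding protein supervillin (Svil, 96 bases), at 0.265, and for the microRNA silencing factor Tnrc6b (159 bases), at 0.226 (0.0548 in raw reads). The transcription factor gene Gtf2i (63 bases) was listed at 0.222.

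A further set of exons lies in transcripts that GENCODE marks as targets of nonsense-mediated decay and in no matched protein-coding transcript. In such decay transcripts a length divisible by 3 does not keep a full reading frame. The set has 6 exons, and inclusion was higher with 4-OHT for 5 of them and lower for 1. Of the 160 listed skipped exons of any length, 35% were higher. Of the 19 with this annotation 15 were (78.9%), 10 of them among the 13 with frame-shifting lengths. In Tia1, Srsf3, Ccnl2 and Dph3 the exon itself holds the annotated stop codon. Srsf3 encodes an SR splicing factor and Tia1 an RNA-binding protein of splicing and stress granules, while Ccnl2 encodes a cyclin linked to splicing. In NPC the Srsf3 exon of 456 bases had levels of 0.828 and 1 with 4-OHT in pairs 26 and 28, against 0.621 and 0.704 with ethanol, on 1269 to 2090 reads. Its raw difference was 0.0267, against 0.252 with the length factor of 14.8. The Ccnl2 exon of 126 bases had levels of 0.706 and 0.803 with 4-OHT, against 0.450 and 0.404 with ethanol. Ccnl2 also had a retained intron and an alternative 3′ splice site listed in NPC, each higher with 4-OHT, by 0.308 and 0.3.

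Clk4, a kinase that phosphorylates SR proteins, has an exon of 78 bases in this set. All 17, 23 and 22 reads supported inclusion with 4-OHT, against 11 of 16, 13 of 17 and 10 of 14 reads with ethanol, so the level was 1 in each 4-OHT library and 0.442, 0.539 and 0.474 in the ethanol libraries. With 0 exclusion reads, a share of up to 17.6%, 13.0% and 13.6% is allowed in these 4-OHT libraries, as 3 divided by the reads. Tmem234, a transmembrane protein gene, had levels of 0.755, 0.770 and 0.914 with 4-OHT, against 0.397, 0.397 and 0.366 with ethanol, for an exon of 219 bases that is 3′ untranslated sequence in its decay transcript. Its libraries did not overlap between groups, as for all NPC events listed in 3 pairs. A frame-shifting exon of 127 bases and 3 mutually exclusive exon events of the same gene were listed in NPC as well, all higher.

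Dph3, a factor of diphthamide synthesis on elongation factor 2, was the exception and the only MEF exon listed in 3 pairs. Its exon of 201 bases had levels of 0.116, 0.082 and 0.110 with 4-OHT in pairs 159, 161 and 163, against 0.348, 0.344 and 0.537 with ethanol (exact permutation p = 0.1, two-sided). A shorter form of the same exon, 75 bases and coding, shared its exclusion reads and was also lower, at 0.406 and 0.533 with 4-OHT, against 0.700 and 0.826 with ethanol. No 4-OHT library of either form reached an ethanol library, and the groups did not overlap for 31 of the 32 MEF skipped exons.

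Of the 71 exons counted once, 54 lie whole in the coding sequence of a protein-coding transcript, 39 of them with lower and 15 with higher inclusion. Apart from the 6 in decay transcripts, 6 exons lie in 5′ untranslated sequence (both forms in Cuedc2 and in Top3b, and 1 each in Rab7 and Tmbim6), 4 in transcripts with no coding sequence, and the Pycr1 exon holds the start codon. By this annotation, 54 of the 71 lie in a reading frame that their length keeps. No set of exons was tested against another.

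**Figure D3:**
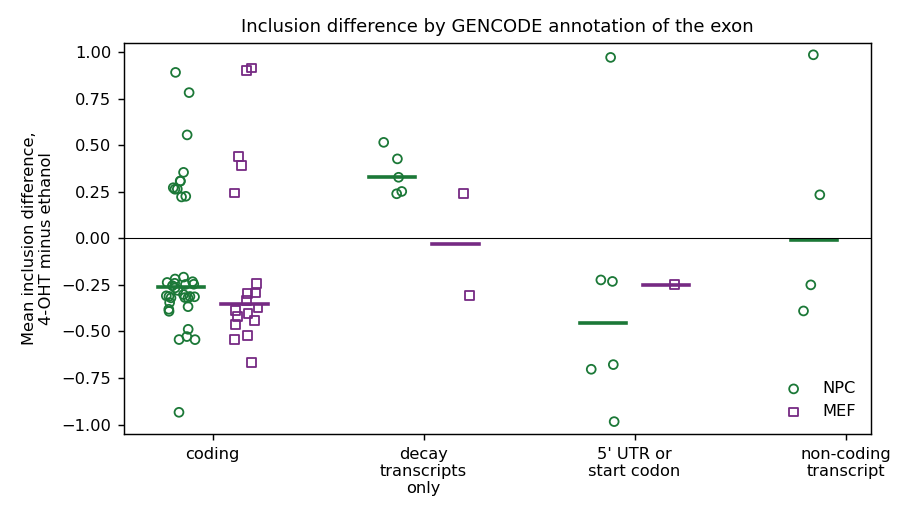
Mean inclusion difference, 4-OHT minus ethanol, of each exon (vertical axis) by its GENCODE annotation, with circles for NPC, squares for MEF and a bar at the median. In decay transcripts 5 NPC exons and the Tia1 exon in MEF lie above 0 and Dph3 lies below.

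Of the 13 NPC exons with an absolute difference of 0.5 or more, 3 had 20 reads or more in every listed library. In NPC, 6 exons had a level of 1 in every listed 4-OHT library (Clk4, Rps16, Rbm10, Rab7, Lsm12 and Tnrc6b), and 5 of these had fewer than 20 reads in a library. Lsm12 had 6 inclusion and 0 exclusion reads in both 4-OHT libraries, against 1 and 10 reads and 0 and 16 reads with ethanol, with a difference of 0.985. Rab7, a GTPase of late endosomes, had 10 and 21 inclusion reads and no exclusion read with 4-OHT, against 6 inclusion and 66 exclusion reads and 22 and 245 with ethanol. The total of reads was 10 and 21 with 4-OHT, against 72 and 267 with ethanol, and its part in the Rab7 result was not tested. Rbm10, a splicing regulator, had 9 and 17 inclusion reads and no exclusion read with 4-OHT, against 10 and 20 reads and 47 and 37 reads with ethanol.

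At the other limit, 6 NPC exons had a level of 1 in every listed ethanol library, among them Crtc2, Vps37a, Tubb4b, Ylpm1 and Tmbim6. Vps37a, a subunit of the ESCRT-I sorting complex, had 39 inclusion and 7 exclusion reads and 79 and 15 reads with 4-OHT, against 65 and 0 reads and 63 and 0 reads with ethanol. Its levels were 0.688 and 0.676 with 4-OHT, against 1 in both ethanol libraries. Tmbim6, a membrane protein that counters cell death, had a difference of -0.984, from 54 and 109 reads with 4-OHT and 8 and 5 reads with ethanol. Ylpm1 has the longest exon, 2118 bases, and its difference of -0.218 came from 8 and 16 exclusion reads among 1677 and 3480 with 4-OHT, against 0 among 1711 and 3614 with ethanol. In raw reads the Ylpm1 difference was -0.00468, since the length factor of 59.4 lowers the weight of inclusion reads.

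Read support varied widely. The listed libraries held a median of 93.5 reads per exon with 4-OHT and 107 with ethanol in NPC, and 58 with 4-OHT and 120 with ethanol in MEF. Counts ranged from 5 to 3614 reads, and 15 NPC and 6 MEF exons had fewer than 20 reads in at least 1 library. With the 38 NPC exons that had 20 reads or more in every listed library, inclusion was lower for 25 and higher for 13, at a median difference of -0.239. With the 15 such MEF exons it was lower for 11 and higher for 4, at a median of -0.307. In raw reads, 5 NPC and 2 MEF exons had a difference below 0.1 and 19 and 9 exons one below 0.2.

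In MEF, the largest difference among exons with lower inclusion was that of Ptbp1, the polypyrimidine tract-binding protein that represses many neural exons. Its exon of 78 bases had 29 inclusion and 75 exclusion reads and 36 and 56 reads with 4-OHT in pairs 161 and 163, against 265 and 52 reads and 19 and 0 reads with ethanol. Levels were 0.122 and 0.188 with 4-OHT, against 0.647 and 1 with ethanol, and the higher ethanol level rests on 19 reads. Upf3b, a factor of nonsense-mediated decay, had levels of 0.153 and 0.032 with 4-OHT, against 0.529 and 0.247 with ethanol, for an exon of 39 bases. Within each group the Upf3b libraries differed by more than 0.1, and the groups did not overlap, as for 31 of the 32 MEF skipped exons.

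Ubap2l, a protein of stress granules, was listed in MEF with overlapping exons of 60 and 75 bases. The form of 75 bases had levels of 0.586 and 0.611 with 4-OHT, against 1 in both ethanol libraries, where 316 and 140 reads all supported inclusion. R3hdm2 was also listed with overlapping exons, of 63 and 102 bases, at 1 in all 4-OHT libraries, against 0.068 to 0.130 with ethanol, on 7 to 27 reads per 4-OHT library. Tlk2, a chromatin-associated kinase, was the exon whose groups overlapped, with 0 and 0.701 with 4-OHT, against 0.584 and 1 with ethanol. Tpm4, a tropomyosin of the actin cytoskeleton, had 1 in both libraries with 4-OHT, against 0.791 and 0.722 with ethanol.

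**Figure D4:**
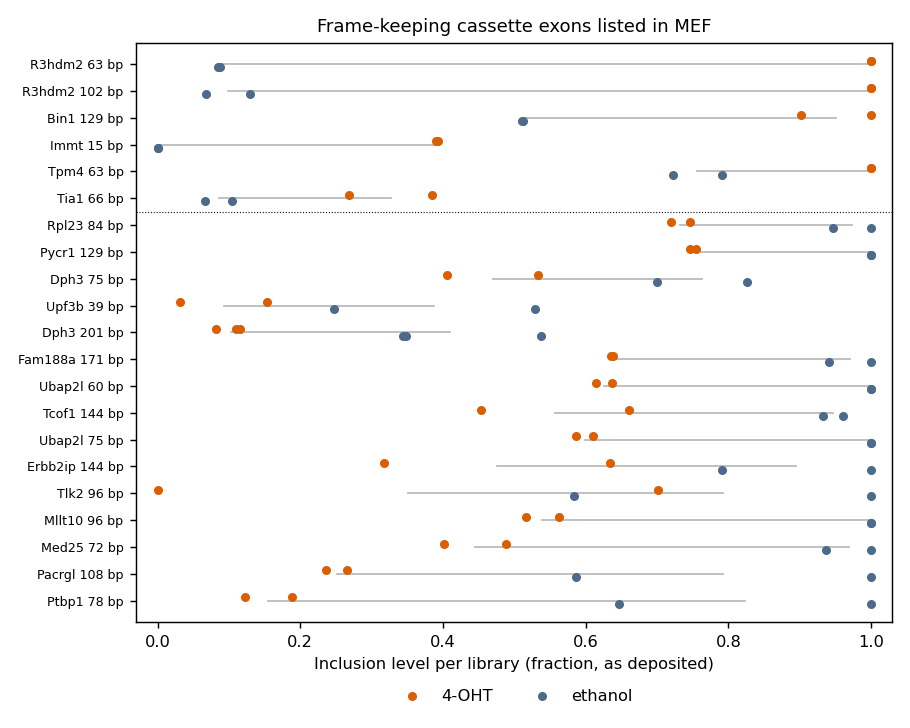
Deposited inclusion level (fraction, horizontal axis) of the 21 MEF exons in each listed library with 4-OHT and with ethanol, with a grey line between the 2 group means; exons above the dotted line had higher inclusion with 4-OHT. There are 6 exons above the line and 15 below, and Tlk2 is the exon whose 4-OHT and ethanol points interleave.

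Both cell types listed the same exon in 3 genes, which is 5.66% of the NPC and 14.3% of the MEF exons, and each had the same direction in both. Over all listed skipped exons 7 were shared, or 5.19% in NPC and 21.9% in MEF. The exon of 129 bases in Bin1, a membrane-bending protein of endocytosis also called amphiphysin 2, had levels of 0.883 and 0.842 with 4-OHT, against 0.590 and 0.592 with ethanol in NPC. In MEF it had 0.902 and 1 with 4-OHT, against 0.511 and 0.512 with ethanol. The exon of 144 bases in Tcof1, which encodes the nucleolar protein treacle, had levels of 0.471 and 0.637 with 4-OHT, against 0.869 and 0.863 with ethanol in NPC. In MEF it had 0.453 and 0.661 with 4-OHT, against 0.960 and 0.932 with ethanol. The Tia1 stop-codon exon of 66 bases had levels of 0.337 and 0.407 with 4-OHT, against 0.121 and 0.145 with ethanol in NPC, and of 0.384 and 0.269 with 4-OHT, against 0.105 and 0.066 with ethanol in MEF.

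For each of these 3 exons the levels of the groups did not overlap in either cell type, as for all 135 skipped exons listed in NPC and 31 of the 32 in MEF. None was listed in 3 pairs in both cell types, so no difference between the cell types was tested. Erbb2ip, the scaffold protein erbin, was listed in both cell types with different exons, of 117 bases in NPC at -0.345 and of 144 bases in MEF at -0.420. Bin1 had a further exon in NPC, of 72 bases, whose direction was opposite to that of its exon of 129 bases. Its levels were 0.6 and 0.551 with 4-OHT, against 1 and 0.913 with ethanol.

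The exons had a median length of 93 bases in NPC, from 9 to 2118, and of 84 bases in MEF, from 15 to 201, against 107 and 79 for exons with frame-shifting lengths. The 3 longest were those of Ylpm1 (2118), the ubiquitin ligase Dzip3 (618) and Srsf3 (456), all in NPC. By length, lower inclusion was seen for 3 of the 4 NPC exons under 30 bases, 1 of 3 of 30 to under 60 bases, 13 of 18 of 60 to under 90 bases, 12 of 15 of 90 to under 120 bases and 5 of 13 of 120 bases or more, beside 62.2% of all NPC skipped exons. Dzip3 had levels of 0.705 and 0.549 with 4-OHT, against 0.324 and 0.317 with ethanol, while its raw difference was 0.0557, again because of the length factor.

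The last base of the exon, part of the 5′ splice site, was G in 30 of the 34 NPC exons with lower inclusion and in 10 of the 19 with higher inclusion. In frame-shifting NPC exons it was G in 29 of 48 annotated exons with lower and in 22 of 30 with higher inclusion. In MEF it was G in 7 of 15 with lower and 5 of 6 with higher inclusion. The order of the shares thus differed between these sets, and no test was run on them. For comparison, 79.97% of the 165258 internal coding exons of GENCODE protein-coding transcripts end in G. Of the same GENCODE exons, 41.1% have a length divisible by 3 and 1.17% are under 30 bases. The counts above are not limited to coding exons. In NPC, 31 of the 38 frame-keeping exons that are coding in a protein-coding transcript ended in G, and 9 of the other 15. In MEF, 11 of 18 and 1 of 3 did. All 5 frame-keeping microexons end in G.

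**Figure D5:**
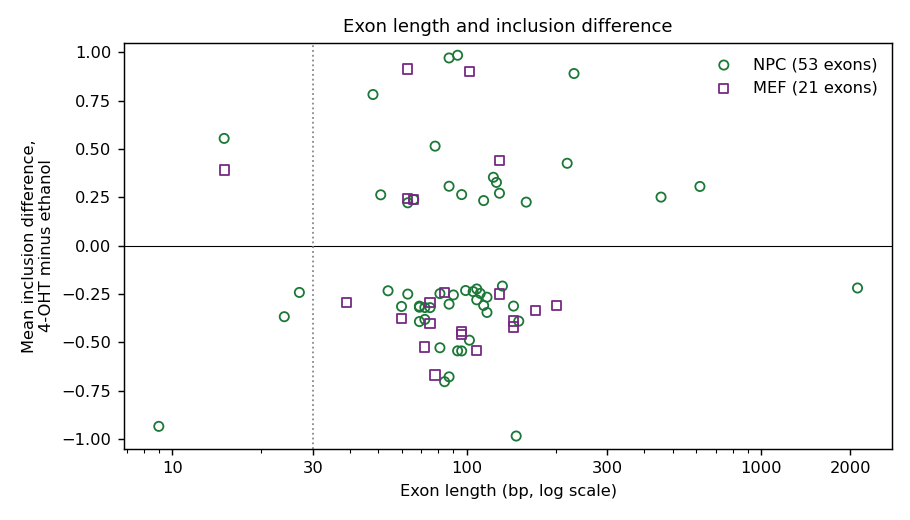
Mean inclusion difference, 4-OHT minus ethanol (vertical axis), against exon length in bases (horizontal log axis) for 53 NPC exons (circles) and 21 MEF exons (squares), with a dotted line at 30 bases. Points lie on both sides of 0 at short and long lengths, and none lies between -0.2 and 0.2 because of the listing limits.

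Few of the host genes appeared in the authors' deposited expression tables, which list genes changed between the groups. In NPC, 3 of 49 did (6.12%), against a background of 12.3% of the genes with any listed skipped exon. Of the 3, 1 was higher and 2 were lower with 4-OHT, where 2.63% of those genes were higher and 9.65% lower. By the authors' deposited table Nnat stood at 162 RPKM with 4-OHT and 253 RPKM with ethanol, Tcof1 at 8.31 RPKM with 4-OHT and 12.8 RPKM with ethanol, and Spna2 at 194 RPKM with 4-OHT and 129 RPKM with ethanol. Total expression and exon inclusion were both lower with 4-OHT for Nnat and Tcof1 and both higher for Spna2. In MEF, 0 of 18 host genes were listed, against a background of 0% of the genes with any listed skipped exon.

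Of the gene lists, splicing and RNA processing held 4 NPC exons (Clk4, Rbm10, Srsf3 and Tia1), 0 lower and 4 higher, where all 6 NPC skipped exons of that list were higher. In MEF it held Ptbp1 and Upf3b, both lower, and Tia1, higher. The median difference over the 4 NPC exons was 0.383, against -0.256 over all NPC skipped exons. Actin, adhesion and cytoskeleton genes held Cask, lower, and Svil, Spna2 and Palld, higher, in NPC and Tpm4, higher, in MEF. The membrane traffic list held Sec24b and both Bin1 exons in NPC and Bin1 in MEF. It does not hold Epn1, Rab7 and Vps37a, which are described above. The centrosome and cell cycle list held Ccnl2, and a list of genes with neural microexons held Spna2. Lists of DNA repair genes and of chromatin and transcription regulators held no exon of these lengths in either cell type. The lists are not complete. The list of chromatin and transcription regulators does not hold Tlk2, Med14 and Gtf2i, which are described above, so its count of 0 does not show that such genes are absent.

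Markers of other cells appeared in the NPC expression table beside these exons. Of 4 astrocyte markers 3 were listed, all higher, at a summed 122 RPKM with 4-OHT and 68.9 RPKM with ethanol, and of 4 oligodendrocyte markers 3, all higher, at 18.1 RPKM with 4-OHT and 5.36 RPKM with ethanol. Of 5 neuronal markers 2 were listed, 1 higher and 1 lower, at a summed 10.4 RPKM with 4-OHT and 6.11 RPKM with ethanol, and of 5 progenitor markers 1 (Hes5), at 4.77 RPKM with 4-OHT and 15.8 RPKM with ethanol. Of 5 immune markers 2 were listed, both higher, and of 4 vessel markers 2, both higher, at a summed 0.258 RPKM with 4-OHT and 0.146 RPKM with ethanol for the vessel markers. The part of these markers in the inclusion of the neural exons above was not tested. No fibroblast marker was listed in either table, which holds changed genes alone, so the labelled cell types could be checked against their markers only in this limited way.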

How the data were processed

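Libraries were made with TruSeq v2, per the labels' protocols. Per the submitters' processing notes, the tools were CASAVA 1.8, TopHat2 2.03, Bowtie2 2.0.0.6 (build mm9), Cuffdiff 2.02 for the expression tables and MATS for the splicing tables, with no MATS version named. Per the file headers, the splicing tables hold read counts for inclusion and exclusion, inclusion levels as a fraction, the authors' score of the difference (ethanol minus 4-OHT, turned here) and a p-value. The deposited expression tables hold 1 RPKM value per arm, so no spread can be computed from them; their log2 and fold values were recomputed. The total depth of a library is unknown here.

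The exons and gene lists were chosen with earlier results of these data known. Levels were averaged over listed libraries. Exons listed in 3 pairs were tested with an exact permutation test, adjusted over all events listed in 3 pairs. That test and the sign-flip test were tested on simulated data. The Clopper-Pearson intervals were computed with scipy 1.17.1. Exons were named if they were under 30 bases, listed in both cell types, listed in 3 pairs with 20 reads or more, among the 12 largest positive differences by that read limit, among the 3 longest, in a gene with several such exons, on a gene list, or in a gene of the expression table. Other exons were named after their values were seen, chiefly those at a level of 0 or 1 and those of synaptic genes.

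Pair codes match no label; the pairing comes from the deposited tables. Over 57 NPC events listed in 3 pairs, deviations from the arm means correlated within the codes at 0.177, 0.160 and 0.123, and over 8 MEF events at 0.232, 0.665 and 0.252, a sign that the listing limits themselves favour. The replicate block, fitted as a sign-flip test over pairs, changed no call, since neither that test nor the exact test can reach 0.05 here. The alternatives were raw reads, pooled reads, minimum reads, a stricter difference, 3 pairs only, 1 exon per gene and leaving out each pair. The GENCODE annotation is of another build, so exons were matched by lengths, which placed all 71. Values of 1 NPC exon are counted in the sums but not reported here.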

Additional observations from a re-analysis of the deposited data

How the results depend on the processing

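Leaving out 1 pair gave median differences between -0.248 and -0.226 in NPC and between -0.305 and -0.296 in MEF. With raw reads the medians were -0.148 in NPC and -0.188 in MEF, because the length factor is left out by construction. With a mean difference of 0.3 or more, 21 NPC exons were lower and 11 higher, with medians of -0.316 in NPC and -0.389 in MEF. With exons listed in 3 pairs, 7 were lower and 5 higher in NPC, and 1 lower and 0 higher in MEF. These settings keep fewer exons by construction. In MEF the median was -0.278 with pooled reads, whose cause was not tested, and -0.314 both with 1 exon per gene and with overlapping exons counted once, the second chosen after seeing the data. Of 65 values under the alternatives, all from the 13 exons listed in 3 pairs, 0 reversed. That outcome was set by construction. Each exon had the same sign in all its listed pairs, raw reads keep the sign within a pair, and the block keeps the difference itself.

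With the pairs as a replicate block, the smallest two-sided p over 3 pairs is 0.25, so none of the 13 exons listed in 3 pairs could pass, and the differences, such as -0.367 for Mink1, are the same by construction. By the exact test, 0 of the 13 passed 0.05, unadjusted or adjusted. Exons with under 20 reads in a library and pairs that were not listed limit what can be said of single exons.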
